A study of Mus musculus with 6 samples.

Results

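The genes followed here are 9 genes that carry the signal of interferon beta from its secretion to the transcription factor ISGF3 and the brakes on that signal. They are the ligand gene Ifnb1, the receptor genes Ifnar1 and Ifnar2, the kinase genes Jak1 and Tyk2, Stat2 and Irf9 for subunits of ISGF3, and the feedback genes Usp18 and Socs1. They were taken by gene name from a table of 54532 genes, and all 9 were found once each. They were chosen by their place in the pathway with their Y-KO against Y-Scr differences in these same libraries already known, so each member's values are given as a description and without a p-value. RNA was sequenced from MB49, a bladder cancer line from a male mouse that still carried its Y chromosome before editing. By the labels, 3 libraries have the genotype CRISPR Y-KO and 3 are CRISPR Y-Scr, whose cells received a guide RNA that targets nothing. After transduction, cells carrying a red fluorescent marker (tRFP) were sorted and grown out as clones. The labels put all 6 libraries in batch 1 and name a tumor under tissue as well as a cell line. The guide used for Y-KO, and whether the 3 libraries of a group came from separate clones or cultures, are not given in the sources used here. A difference between the groups and a difference between clones therefore cannot be told apart, and the p-values below measure only the spread between these libraries, which may be technical.

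Interferon beta is a cytokine that cells secrete after sensing foreign or misplaced nucleic acid, and it acts on the same cell and on neighbours. It binds a receptor made of the Ifnar1 and Ifnar2 chains, which bring together the kinases Tyk2 and Jak1. The kinases phosphorylate STAT proteins, and the complex called ISGF3, of which Stat2 and Irf9 are subunits, then enters the nucleus and switches on interferon-stimulated genes at a DNA element called ISRE. Stat2, Irf9 and Usp18 are known to be interferon-stimulated genes themselves, which makes the pathway a loop.

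Promoter sequences came from RefSeq (build GRCm38.p6), which held windows of 250 bases before to 50 bases after the annotated start for 8 of the 9 members, all but Usp18. These motifs were searched on both strands: the ISRE core (GAAA, any 2 bases, GAAA), the STAT site (TTC, any 3 bases, GAA) and the NF-kB site (GGGA, any 2 bases, TTCC). The stretches shown are those in which an ISRE core or an NF-kB site was matched, with the matches in capitals and read 5′ to 3′ on the gene's own strand. They lie at chr4:88522875-88522974 (minus strand, Ifnb1), chr10:128270248-128270347 (plus strand, Stat2) and chr16:10785567-10785666 (minus strand, Socs1).
Ifnb1: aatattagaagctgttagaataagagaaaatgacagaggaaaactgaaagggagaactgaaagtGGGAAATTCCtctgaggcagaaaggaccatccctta
Stat2: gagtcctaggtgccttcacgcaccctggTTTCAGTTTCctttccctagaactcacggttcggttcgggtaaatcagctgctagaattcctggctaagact
Socs1: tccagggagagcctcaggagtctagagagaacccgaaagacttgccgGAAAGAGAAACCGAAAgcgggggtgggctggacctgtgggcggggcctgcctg
The Ifnb1 match is an NF-kB site that begins 116 bases before the start, and 1.47% of all 32851 promoter windows held one. Stat2 held 1 ISRE core, which begins 222 bases before the start, and Socs1 held 2 overlapping ones, which begin 83 and 77 bases before it, while 3.44% of all windows held at least 1. STAT sites were matched in the windows of Ifnar1 and Ifnar2, against 8.3% of all windows. Jak1, Tyk2 and the 2 windows of Irf9 held no match of these letters. The Irf9 windows begin at 55603735 and 55604329, inside the gene as deposited (start 55603571), so no sequence before that start was searched. A match is a description of sequence and does not show that a factor binds there.

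The libraries held 15698510 to 24633158 counts, and 3 counts, taken as the floor of detection, equalled 0.125 to 0.190 CPM, the count scaled by each library's total. The Y genes Ddx3y, Eif2s3y, Kdm5d and Uty held 22726 counts over the Y-Scr libraries and 0 over the Y-KO libraries. Of 13 bladder epithelium markers, 4 were tested, and the keratin genes Krt8 and Krt18 were the most abundant (2190 ± 67.2 and 1330 ± 121 CPM in Y-Scr, SD, n = 3), while Epcam, Cdh1 and Upk3a were at 0 counts in all 6 libraries. The 4 tested markers did not move together: Krt19 rose by 2.37 ± 0.23 on the log2 scale (SE, edgeR adjusted p = 1.5e-07) and Krt8 by 0.36 ± 0.06 (edgeR adjusted p = 7.1e-05), Gata3 fell by 1.48 ± 0.21 (edgeR adjusted p = 1.4e-05), and Krt18 stood at 0.03 ± 0.07. Markers of leukocytes, which can both make and answer type I interferon, were low: the summed level of 11 markers ranged from 1.14 to 1.63 CPM in Y-Scr and from 0.56 to 1.53 CPM in Y-KO. Ptprc, Cd3e, Itgam and H2-Aa were at 0 counts in every library. The 6 endothelial and fibroblast markers summed to 11.6 to 16.0 CPM in Y-Scr and 17.7 to 20.2 CPM in Y-KO, with Pdgfra higher in Y-KO by 0.73 ± 0.13 on the log2 scale (SE, edgeR adjusted p = 0.00018). The part of these markers in the results below was not tested.

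The members did not all move alike. Ifnb1, Stat2, Irf9 and Usp18 were far lower in Y-KO, the receptor chains and Socs1 differed little, and the kinases were slightly higher. All 9 members passed the filter on low counts. At an adjusted p under 0.05, 4 members were lower, where 23.0% of the 12907 genes tested were lower, and 2 were higher, where 20.7% were. In both directions together, 6 of 9 members were called, beside 43.6% of all genes tested (edgeR's quasi-likelihood test). The CPM of the groups did not overlap for 7 of 9 members, against 52.9% of all genes tested. Since the members were chosen with this contrast known, nothing is read from these counts. The median log2 difference was -0.26 over the members and -0.01 over all genes tested.

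**Figure D1:**
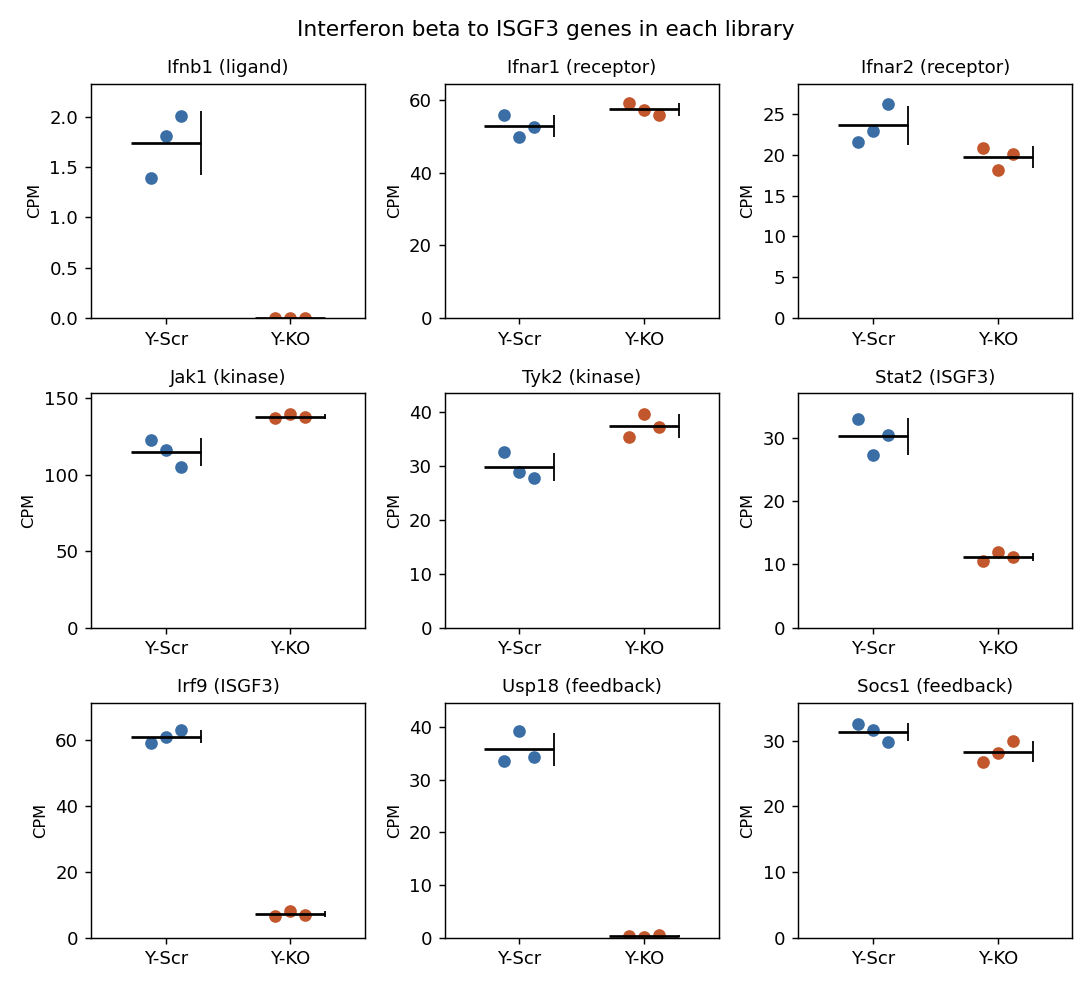
CPM of each of the 9 genes in each library, Y-Scr (blue) and Y-KO (orange), with the mean as a bar and the SD as a vertical line; each axis starts at 0. The groups stand clear of each other in the panels of Ifnb1, Stat2, Irf9 and Usp18, and share values in those of Ifnar1 and Socs1.

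Ifnb1 encodes interferon beta, the ligand that starts the chain (ENSMUSG00000048806, chromosome 4, 88522025 to 88522774, GRCm38). It had 22, 30 and 48 counts in the Y-Scr libraries and 0, 0 and 0 in the Y-KO libraries. In CPM this was 1.39, 1.81 and 2.01, a mean of 1.74 ± 0.314 (SD, n = 3), so the transcript was scarce but detected in every control library and in no Y-KO library. Against a floor of 3 counts over the Y-KO group, it was at least 31.0-fold lower. In bulk RNA, fewer cells that express a gene and less of its RNA per cell cannot be told apart. The CPM values rest on few counts, and floors cover counting error only, since PCR copies were not marked.

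No other type I interferon gene reached the level of the test. Of the 17 others listed, 12 were at 0 counts in all 6 libraries. Ifna4, of the interferon alpha family, had 4, 2 and 9 counts in the control libraries and 0 in each Y-KO library, at least 4.65-fold lower against the same kind of floor. Ifna1 had 5 counts, all in Y-Scr 1. Over each group, Ifnz had 4 (Y-Scr) and 5 (Y-KO) counts, and Ifne had 1 and 2. The interferon alpha genes are near-identical copies, and reads could have been split or lost between them. Ifng, the type II ligand, and Ifnl2 were at 0 counts throughout, and Ifnl3, like Ifnl2 a type III ligand, had 1 count in Y-Scr.

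The genes of the interferon receptor differed by little, and neither passed the threshold. Ifnar1, the chain that holds Tyk2 (ENSMUSG00000022967, chromosome 16, 91485238 to 91507441), stood at 55.8, 49.8 and 52.4 CPM in Y-Scr and 59.2, 57.3 and 55.7 CPM in Y-KO. The groups overlapped, since the lowest Y-KO library lay just under the highest Y-Scr library, and the difference was 0.12 ± 0.08 on the log2 scale (SE). Ifnar2, the chain that holds Jak1 (ENSMUSG00000022971, chromosome 16, 91372783 to 91405589), stood at 21.6, 22.9 and 26.2 CPM in Y-Scr and 20.8, 18.2 and 20.1 CPM in Y-KO. Every Y-KO library lay below every Y-Scr library, by a narrow margin, and the difference was -0.26 ± 0.11. It did not pass the threshold, but did without Y-Scr 1 (-0.31). Removing the gene length trend gave -0.14.

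The receptor genes next to them on chromosome 16 were lower. Ifnar2, Il10rb, Ifnar1 and Ifngr2 follow each other there on the plus strand, with Il10rb at 91406164 to 91425834 and Ifngr2 at 91547072 to 91565623. Il10rb, a chain shared by the receptors of interferon lambda and interleukin 10, fell by 0.47 ± 0.12 on the log2 scale (SE), from 17.7 ± 1.67 to 12.7 ± 0.796 CPM (edgeR adjusted p = 0.0034). Ifngr2, a chain of the interferon gamma receptor, fell by 0.44 ± 0.09 (edgeR adjusted p = 0.00055). The other gamma receptor chain gene, Ifngr1, lies outside this cluster and fell by 0.89 ± 0.08, from 75.1 ± 3.3 to 40.6 ± 2.6 CPM (edgeR adjusted p = 4.1e-08). Ifnlr1, the ligand-binding chain for interferon lambda, stood at 0.30 ± 0.22 and Il20rb, a chain of interleukin 20 receptors, at 0.71 ± 0.32, neither past the threshold. Of 5 tested genes of the 8 listed receptors, 3 fell and 0 rose, beside 23.0% and 20.7% of all genes tested, with a median of -0.44. Without Y-KO 1, Il20rb passed as higher (0.91), which made that count 1.

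The kinases that sit on the receptor were slightly more abundant in Y-KO. Jak1, used by receptors of all interferon types (ENSMUSG00000028530, chromosome 4, 101152367 to 101265282), stood at 123, 116 and 105 CPM in Y-Scr and 137, 140 and 138 CPM in Y-KO. Its groups did not overlap, and the difference was 0.27 ± 0.07 on the log2 scale (SE). Tyk2, the partner of Ifnar1 (ENSMUSG00000032175, chromosome 9, 21104068 to 21131243), stood at 32.6, 28.9 and 27.8 CPM in Y-Scr and 35.3, 39.6 and 37.2 CPM in Y-KO. Its groups did not overlap either, at a difference of 0.33 ± 0.09. These are differences of 1.21-fold and 1.26-fold in mean CPM, and 49.3% and 41.3% of all genes tested differed by more. Over all genes tested, the median difference was -0.14 in the shortest of 5 equal groups by gene length and 0.14 in the longest, and both kinase genes are longer (7227 and 6865 bases) than the median tested gene (4000 bases). With the trend on gene length removed, the differences were 0.23 and 0.30. That removal also moved the median over all genes tested, from -0.01 to 0.05.

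**Figure D2:**
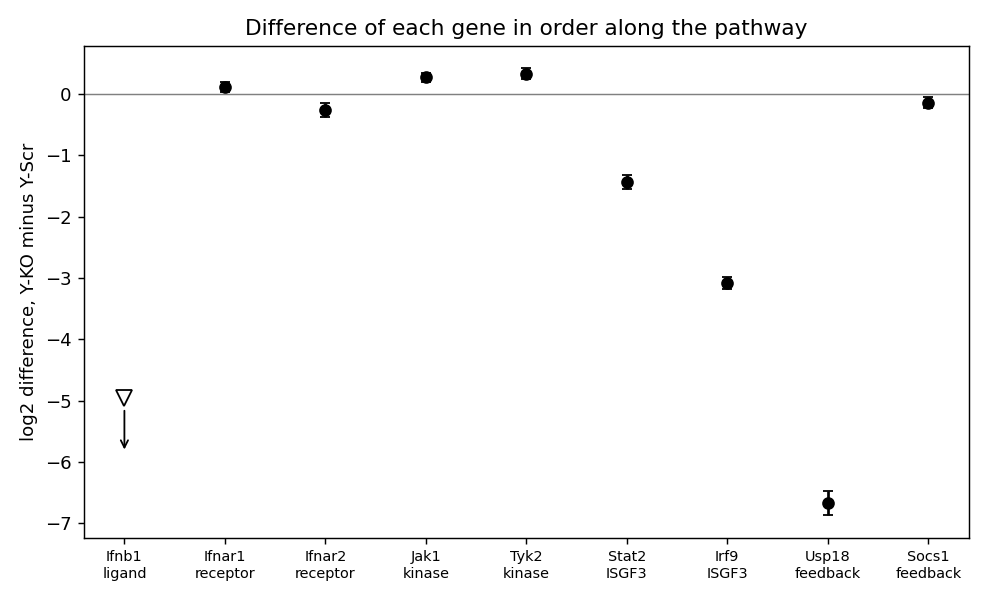
Log2 difference in expression, Y-KO minus Y-Scr, of the 9 genes in order along the pathway, with the SE as error bars. The open triangle with an arrow marks the bound for Ifnb1, which had 0 counts in Y-KO; receptors, kinases and Socs1 lie between -0.26 and 0.33, and Stat2, Irf9 and Usp18 between -1.43 and -6.67.

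Other kinases and STATs of the family moved by small amounts and in both directions. Of 6 tested genes of 7 listed, 3 rose and 1 fell, beside 20.7% and 23.0% of all genes tested, with a median of 0.12. Stat5a rose by 0.47 ± 0.10 on the log2 scale (SE), from 18.3 ± 1.33 to 25.4 ± 0.713 CPM (edgeR adjusted p = 0.00081). Stat5b rose by 0.24 ± 0.07 (edgeR adjusted p = 0.013) and Stat6, the STAT of interleukin 4 signalling, by 0.16 ± 0.06 (edgeR adjusted p = 0.041). Jak3, best known from lymphocytes, fell by 0.35 ± 0.13 (edgeR adjusted p = 0.033). Jak2 (-0.15 ± 0.11) and Stat3 (0.07 ± 0.07), the kinase and STAT of many growth factor and interleukin 6 type receptors, did not pass. The calls of the smaller differences were fragile. Stat5b was lost without Y-KO 2 (0.22) or Y-KO 3 (0.22). Stat6 was lost without Y-Scr 2 (0.14) or without any 1 of Y-KO 1 (0.14), 2 (0.17) and 3 (0.19), and with no low-count filter (0.16). Jak3 was lost with DESeq2 (-0.35), and with Y-Scr 2 (-0.30), Y-Scr 3 (-0.34), Y-KO 2 (-0.34) or Y-KO 3 (-0.29) left out. Of the 4 called genes, only Stat5a was past the threshold in all of these fits.

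Stat2 and Irf9, which encode subunits of ISGF3, were much lower, and by unequal amounts. Stat2, the subunit that carries the transactivation domain (ENSMUSG00000040033, chromosome 10, 128270559 to 128292849), stood at 33.0, 27.2 and 30.5 CPM in Y-Scr and 10.6, 11.9 and 11.1 CPM in Y-KO. All 3 Y-KO libraries lay far below the lowest Y-Scr library, and the mean was 37.2% of that in Y-Scr. The difference was -1.43 ± 0.11 on the log2 scale (SE). Irf9, the subunit that gives ISGF3 its recognition of the ISRE (ENSMUSG00000002325, chromosome 14, 55603571 to 55610030), stood at 59.0, 60.9 and 63.0 CPM in Y-Scr and 6.66, 8.15 and 6.85 CPM in Y-KO. Its mean in Y-KO was 11.8% of that in Y-Scr, and the difference was -3.08 ± 0.10. The libraries within each group lay close together.

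Per kb of gene length, the balance of the Irf9 and Stat2 transcripts turned over. The ratio of Irf9 to Stat2 was 1.97, 2.47 and 2.28 in the Y-Scr libraries and 0.689, 0.751 and 0.679 in the Y-KO libraries. By this measure Irf9 stood above Stat2 in each control library and below it in each Y-KO library. That order rests on the deposited lengths (5386 and 5926 bases), while the fall of the ratio between the groups does not. The ratio of Jak1 to Tyk2 was 3.66 ± 0.123 in Y-Scr and 3.52 ± 0.159 in Y-KO (SD, n = 3), and its values overlapped between groups. The ratio of Ifnar1 to Ifnar2 was 1.26 ± 0.167 and 1.64 ± 0.112. It was higher in each Y-KO library than in any Y-Scr library. The Irf9 gene overlaps the end of its neighbour Rnf31 by 123 bases on the same strand. Rnf31, which encodes a subunit of a linear ubiquitin ligase, fell by 0.39 ± 0.09 on the log2 scale (edgeR adjusted p = 0.0016).

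**Figure D3:**
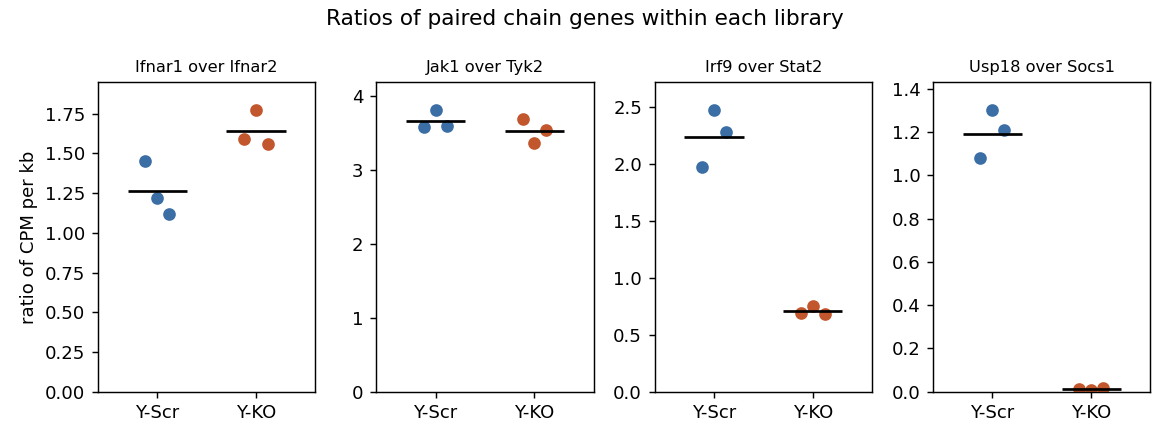
Ratio of 2 members' CPM per kb of gene length within each library, for 4 pairs, Y-Scr (blue) and Y-KO (orange), with the mean as a bar; each axis starts at 0. The ratio of Irf9 to Stat2 goes from a mean of 2.24 to 0.706, and that of Jak1 to Tyk2 stays near 3.66 and 3.52.

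The 2 feedback genes went apart. Usp18 encodes a protease that removes the ubiquitin-like protein ISG15 from its targets and also binds Ifnar2, where it blocks signalling (ENSMUSG00000030107, chromosome 6, 121245906 to 121270917). The Y-Scr libraries held 531, 650 and 822 counts of it and the Y-KO libraries 7, 3 and 8, or 33.6, 39.3 and 34.3 CPM against 0.376, 0.187 and 0.453 CPM. The Y-KO mean was 0.947% of that in Y-Scr, and the difference was -6.67 ± 0.20 on the log2 scale (SE). Of the 12907 genes tested, 31 had a fitted difference of larger size. These include genes at 0 counts in Y-KO, such as Ifnb1, whose fitted values are no bound. Every Y-KO library still held at least 3 counts of Usp18. Socs1 encodes an inhibitor that binds and blocks Janus kinases (ENSMUSG00000038037, chromosome 16, 10782240 to 10785536). It stood at 32.5, 31.6 and 29.7 CPM in Y-Scr and 26.8, 28.1 and 29.9 CPM in Y-KO, where the highest Y-KO library lay just above the lowest Y-Scr library. The difference was -0.14 ± 0.09, and 0.00 with the trend on gene length removed. Usp18 had no promoter window to search, so the overlapping ISRE cores of Socs1 printed above cannot be compared with it.

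Among 15 other inhibitors of JAK and STAT signalling, all tested, 4 fell and 3 rose, close to the 23.0% lower and 20.7% higher among all genes tested, with a median of -0.06. Cish, a SOCS family gene known as a target of Stat5, fell by 3.10 ± 0.44 on the log2 scale (SE), from 2.68 ± 0.387 to 0.30 ± 0.165 CPM (edgeR adjusted p = 1.3e-05). Socs3, the feedback inhibitor of interleukin 6 type receptors, stood at 34.2, 32.6 and 33.8 CPM in Y-Scr and 24.4, 20.5 and 19.7 CPM in Y-KO, a fall of 0.64 ± 0.10 (edgeR adjusted p = 4.2e-05). Pias3, which encodes an inhibitor of STAT proteins, fell by 0.38 ± 0.10 (edgeR adjusted p = 0.0055), a call lost without Y-KO 3 (-0.30). Ptpn11, which encodes the phosphatase SHP2, rose by 0.24 ± 0.07 (edgeR adjusted p = 0.0075). Pias1 (-0.05 ± 0.08) and Pias2 (0.00 ± 0.07) lay nearest to 0. The number that rose was 1 without Y-Scr 2, without Y-KO 1 or without Y-KO 3.

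Ordered by level per kb, the chain looked different in the 2 groups. In Y-Scr the order was Jak1 (15.8 ± 1.25 CPM per kb, SD, n = 3), Usp18 (12.8 ± 1.12), Irf9 (11.3 ± 0.371), Socs1 (10.8 ± 0.488), Ifnar1 (8.87 ± 0.504), Ifnar2 (7.08 ± 0.714), Stat2 (5.1 ± 0.491), Tyk2 (4.34 ± 0.366) and Ifnb1 (2.32 ± 0.418). Of these neighbours, Irf9 and Socs1 overlapped in their library values, and so did Stat2 and Tyk2. In Y-KO, Jak1 again came first (19.1 ± 0.246 CPM per kb), then Socs1 (9.72 ± 0.537), Ifnar1 (9.66 ± 0.296), Ifnar2 (5.91 ± 0.412) and Tyk2 (5.45 ± 0.318). Socs1 and Ifnar1 overlapped there, as did Ifnar2 and Tyk2. Stat2 (1.89 ± 0.112), Irf9 (1.34 ± 0.151), Usp18 (0.121 ± 0.0491) and Ifnb1 at 0 counts closed the order, with no overlap between neighbours. Lengths are those deposited with the table, and a length that counts rarely used exons makes a level per kb too low.

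**Figure D4:**
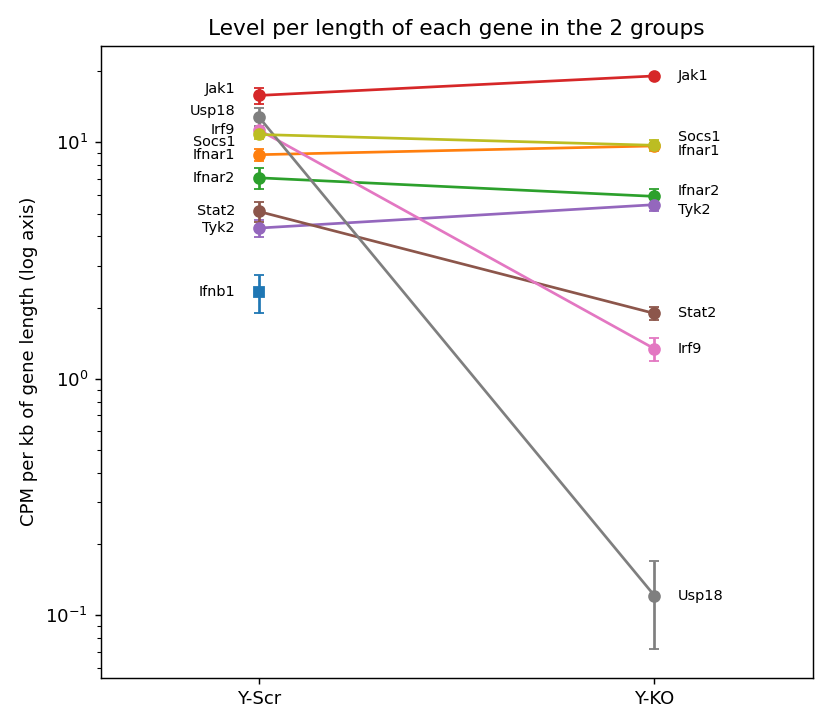
Mean CPM per kb of gene length on a log axis for each gene in Y-Scr (left) and Y-KO (right), with the SD over 3 libraries as error bars; Ifnb1 is drawn for Y-Scr only, since it had 0 counts in Y-KO. Usp18 goes from the second place (12.8) to 0.121, below every other gene drawn.

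Upstream of the ligand, genes that sense nucleic acid or drive the Ifnb1 promoter were taken as a list. Of 17 tested genes of 20 listed, 9 fell and 3 rose, beside 23.0% and 20.7% of all genes tested, with a median of -0.28. The list as a whole was not tested. The 3 that rose were Crebbp (0.74 ± 0.10 on the log2 scale, SE), Ep300 (0.53 ± 0.08) and Mavs (0.46 ± 0.08). Irf7, a factor that amplifies type I interferon genes and is itself an interferon-stimulated gene, stood at 25.7, 24.4 and 31.1 CPM in Y-Scr and 0.698, 0.560 and 0.736 CPM in Y-KO. It fell by 5.33 ± 0.19 on the log2 scale (SE, edgeR adjusted p = 3.0e-14). Ddx58, the table's name for the gene of the RNA sensor RIG-I, fell by 1.88 ± 0.10 (edgeR adjusted p = 3.5e-11). Rela, an NF-kB subunit gene, went from 216, 193 and 199 CPM to 104, 105 and 103 CPM, a fall of 0.96 ± 0.06 (edgeR adjusted p = 3.8e-10). Jun, whose product binds the Ifnb1 enhancer with Atf2, fell by 0.81 ± 0.06 (edgeR adjusted p = 2.4e-09). Tbk1 (0.06 ± 0.08), the kinase that activates Irf3, and Nfkb1 (-0.05 ± 0.07) lay nearest to 0 of the tested genes. With the trend on gene length removed, Nfkb1 stood at -0.17 and passed.

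Downstream of ISGF3, its known targets were lower almost without exception. Of 28 listed genes, all tested, 27 fell and 0 rose, beside 23.0% and 20.7% of all genes tested, with a median of -4.02, also with the genes at 0 counts in Y-KO set to their bound. Cxcl10, a chemokine gene, fell by 4.17 ± 0.09 on the log2 scale (SE, edgeR adjusted p = 3.3e-17). Rsad2 went from 47.2 ± 2.43 to 1.02 ± 0.271 CPM and Isg15, whose product Usp18 removes from proteins, from 35.9 ± 4.72 to 0.191 ± 0.033 CPM. Rtp4 had 471, 479 and 757 counts in the control libraries against 3, 0 and 0 counts, which is a ratio of 529 (exact 95% interval 181 to 2570, counting error only). Its Y-KO counts are all in Y-KO 1, and without that library the fitted difference went from -8.88 to -12.08, which rests on 0 counts and is no bound. Trim25, which encodes the ubiquitin ligase that activates RIG-I, fell by 0.73 ± 0.07 (edgeR adjusted p = 5.3e-08). Ifit2 stood at 0.13 ± 0.10 and did not pass. This list was put together with earlier results of these data known, and its direction is no independent evidence.

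**Figure D5:**
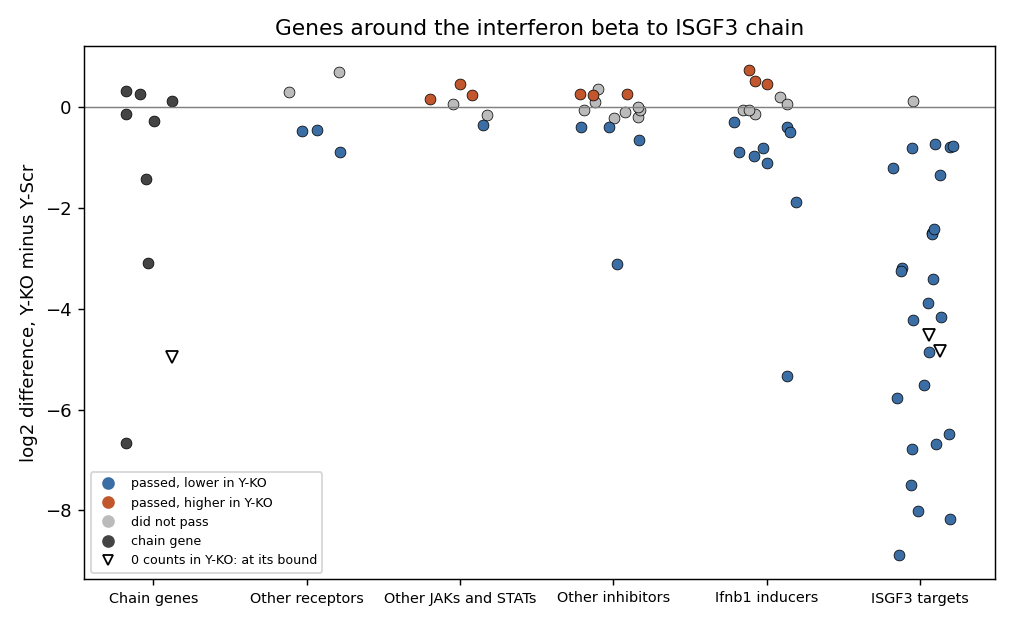
Log2 difference, Y-KO minus Y-Scr, of each tested gene in the chain and in 5 lists of genes around it; blue and orange points passed an adjusted p of 0.05, light grey ones did not, dark grey marks the chain genes and open triangles genes with 0 counts in Y-KO at their bound. The ISGF3 targets reach down to -8.88 (Rtp4, whose Y-KO counts are all in Y-KO 1), while the other JAKs and STATs lie between -0.35 and 0.47.

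The genes whose pattern over the 6 libraries lay nearest to a member were sought among 9656 other protein-coding genes averaging 5 CPM or more. The measure was the root mean square difference of log2 CPM around each gene's own mean, with 0.5 CPM added first. With 2 groups, this measure mostly ranks genes by the size of the group difference in these values. Nearest to Irf9 were Tnfaip3 (root mean square 0.0917), Ccl7 (0.115), Vcam1 (0.143) and Oas1a (0.148). Tnfaip3, an inhibitor of NF-kB signalling, went from 89.5 ± 2.26 to 9.72 ± 1.16 CPM. Nearest to Stat2 were Dusp8 (0.0421), Noct (0.0511), Helz2 (0.0902) and Ptgs2 (0.0993), and Dusp8, a phosphatase gene of MAP kinase signalling, went from 47.9 ± 4.95 to 18.3 ± 1.6 CPM. Nearest to Usp18 were Isg15 (0.214), Ifit1 (0.219), Pthlh (0.244) and Ifit3 (0.257). Their fitted log2 differences were -7.5, -8.17, -9.34 and -6.49, against -6.67 for Usp18. The Y-KO means of these genes and of Usp18 lay below the 0.5 CPM added, so nearness here does not mean an equal fall. Ifit3 went from 24.7 ± 1.61 to 0.269 ± 0.119 CPM, and Pthlh from 16.8 ± 0.667 to 0.0189 ± 0.0327 CPM.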

How the data were processed

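Raw read counts of each gene in 6 libraries were deposited, not normalized, with gene lengths. The submitters' processing notes name Trimmomatic 0.39, STAR 2.5.2b, featureCounts 1.5.3 and, without a version, DESeq2, and list GRCm39 and mm39 as builds, but of 54409 genes shared with a GRCm38 annotation 98.3% had the same coordinates, as had all 9 members, so GRCm38 is named with coordinates. Whether counting used strand is not given in the sources available here. The largest overlap of a member with another gene on the opposite strand was that of Tyk2 with 1700084C06Rik, which held 2 counts in all. On the same strand, Ifnar2 overlaps the protein-coding gene Gm21970 over 13869 bases, and Gm21970 held 0 counts in both groups. Reads that fall in both genes may have been left out, so the level of Ifnar2 may be too low.

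The test was edgeR 4.0.16 under R 4.3.3 (filterByExpr, TMM, robust quasi-likelihood fit on group, Benjamini-Hochberg adjustment over 12907 genes, threshold 0.05). Log2 differences are Y-KO minus Y-Scr with the SE derived from the test statistic. CPM use TMM-scaled library sizes and CPM per kb the deposited length. Intervals are exact at 95%. Replicate pairs differed by more than counting error (chi-square 3.44 to 14.8 per degree of freedom). On simulated counts for 12907 genes, 50 genes were changed at each fold. Of these, 68% of genes changed 1.5-fold and 74% of those changed 2-fold were recovered, with 13 calls among 12547 unchanged genes. Far fewer genes changed there than the 43.6% called in the data, so these shares may not hold for the data.

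Members and lists were chosen with earlier results of these data known. Named genes were the members, all tested genes of lists with up to 6, otherwise the 4 called genes with the smallest adjusted p and the 2 nearest to 0, and the 4 nearest patterns of Irf9, Stat2 and Usp18. Rnf31, Crebbp, Ep300, Mavs and other genes given as examples (type I interferons, markers) were named after their values were seen. Of the listed symbols, 3 matched under an older name through RefSeq synonyms. Values of some genes of this pathway and of the marker lists are not reported here. Alternatives were DESeq2 1.42.0, limma-voom (limma 3.58.1), RLE and upper-quartile scaling, other filters, a replicate block, only protein-coding genes, removal of each library's trend on gene length (natural spline, 4 degrees of freedom), each library left out, and 1 mismatch in the ISRE core.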

Additional observations from a re-analysis of the deposited data

How the results depend on the processing

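All 9 members kept their direction under the 15 alternatives, except that Socs1 stood at 0.00 with the gene length trend removed, and 2 members were called higher and 4 or 5 lower throughout. The fifth was Ifnar2, past the threshold with at least 1 CPM in 3 libraries (-0.26), among protein-coding genes alone (-0.27) and without Y-Scr 1 (-0.31), the only such fit among those that left out a library, which ranged from -0.31 to -0.18. Stat2 ranged from -1.49 to -1.36 and Usp18 from -6.92 to -6.41. With the gene length trend removed, 57% of all calls were higher, against 47.3%. The median over all genes tested was then 0.05, against -0.01, so part of each member's shift in that setting is shared by all genes. The call of Stat6 was lost with no low-count filter (0.16). The call of Jak3, 1 of the JAK and STAT list, was lost with DESeq2, leaving 0 lower there. Leaving out a library gave 0 to 1 lower and 1 to 3 higher in that list, 1 to 3 higher among the other inhibitors and 0 to 1 higher among the other receptors. Of small differences, Stat3 changed sign with the length trend removed (-0.02), Pias2 with the other scalings, DESeq2 and the length trend removed (0.01 in each) and in part of the fits with a library left out (-0.05 to 0.05), Jak2 in those fits (-0.26 to 0.01) and Nfkb1 too (-0.12 to 0.00). Same-numbered libraries of the groups did not deviate together (correlations -0.102, -0.0673 and -0.03). With 3 libraries per group, this cannot show that the libraries were unpaired. With the replicate number as a block, 38.4% of genes were called, and Jak3 (-0.36), leaving 0 lower in its list, and Stat6 (0.16) lost their calls. With 1 mismatch allowed, 35.4% of promoter windows held an ISRE core. Ifnb1 and Socs1 then held 3 each, and Stat2 and the second window of Irf9 held 2 each. The first window of Irf9 and those of Ifnar1, Ifnar2, Jak1 and Tyk2 still held none. At these depths Ifnb1 rests on 100 counts.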
